A study of Rattus norvegicus with 6 samples.

Results

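Aquaporins were followed in the inner epithelial layer of the rat colon as 6 genes, Aqp1, Aqp3, Aqp4, Aqp7, Aqp8 and Aqp11, of 13104 genes and unmatched transcripts in the table. They were taken by gene symbol: each row of the table carries a RefSeq transcript, its accession was matched to a symbol of the RefSeq rat annotation, and the rows of 1 gene were summed. All 6 had a row, 9 transcript rows in total, of which 4 belonged to Aqp4. The annotation holds 13 aquaporin family symbols. Aqp12a and Mip (aquaporin 0) also had a row and are described at the end, while no row was matched to Aqp2, Aqp5, Aqp6, Aqp9 or Aqp10.

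The tissue came from adult male Wistar rats, all pinealectomized, so that the gland's own nightly melatonin was absent in both groups. Melatonin animals 4, 5 and 6 received 1 mg/kg melatonin into the peritoneal cavity at the start of subjective night. Vehicle animals 1, 2 and 3 received 2.5% ethanol in PBS by the same route at the same time. Tissue was taken 4 h after the injection in both groups, and each library came from 1 animal. The comparison addresses how the colonic epithelium responds to a single dose of the hormone. Levels are FPKM, fragments scaled to transcript length and to the mapped fragments of the library. Since they are per length, levels of different genes were set side by side. FPKM carries no correction for other differences between transcripts, which would be shared by all 6 animals.

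Aquaporins are membrane channels that let water follow osmotic gradients. Each subunit of the tetramer carries its own pore. The classical members, here Aqp1, Aqp4 and Aqp8, pass mainly water. The aquaglyceroporins Aqp3 and Aqp7 also pass glycerol, and Aqp11 is an unorthodox member of intracellular membranes. In the colon, ion absorption sets up the gradient, and aquaporins of the epithelium are known as one route by which water follows it out of the gut lumen. Aqp3 lies in the basolateral membrane of many epithelia, and Aqp3, Aqp8 and Aqp11 are also known to pass hydrogen peroxide.

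The sequences ahead of the start sites of Aqp3 and Aqp8 are shown because these 2 genes made up most of the aquaporin transcript in every animal and the balance between them differed widely between animals. Both are from RefSeq, build GRCr8, the 250 bases before the annotated start, 5′ to 3′ on the strand of the gene. The Aqp3 stretch is chr5:61040684-61040933 on the minus strand and the Aqp8 stretch chr1:187424193-187424442 on the plus strand. Capitals mark matches on either strand to the TATA box TATAAA, the GC box GGGCGG, which Sp1 family factors bind, and the E-box CACGTG, which clock transcription factors bind. No match overlaps another.
Aqp3: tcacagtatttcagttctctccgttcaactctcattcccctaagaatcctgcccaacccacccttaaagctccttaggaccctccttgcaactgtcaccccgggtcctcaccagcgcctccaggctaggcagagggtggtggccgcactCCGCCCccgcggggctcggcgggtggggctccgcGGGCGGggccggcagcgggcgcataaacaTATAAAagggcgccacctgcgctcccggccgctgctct
Aqp8: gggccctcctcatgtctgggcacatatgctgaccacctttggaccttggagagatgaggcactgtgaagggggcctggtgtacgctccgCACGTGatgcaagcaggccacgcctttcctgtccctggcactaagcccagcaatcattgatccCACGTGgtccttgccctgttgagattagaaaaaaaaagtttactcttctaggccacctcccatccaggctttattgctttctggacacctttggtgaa
The Aqp3 stretch held 1 TATA box, beginning 38 bases before the start, and 2 GC boxes, beginning 101 and 67 bases before it. The Aqp8 stretch held 2 E-boxes, beginning 161 and 98 bases before the start, and neither of the other motifs. Of the 33465 stretches of the same length in the RefSeq table, 12.9% held TATAAA, 30.5% GGGCGG and 5.59% CACGTG on either strand. A match describes the letters in this window and shows no binding.

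The libraries were alike in depth. The steps between low FPKM values gave an estimated 3270000 to 3530000 mapped fragments per library, and the RNA integrity numbers of the samples lay between 9.0 and 9.7. The labelled tissue matched its markers: all 11 of the 12 epithelial markers that had a row averaged at least 1 FPKM, with Epcam between 1136 and 1252 FPKM and Krt8 between 2895 and 3592 FPKM. Fibroblast and glial markers were low, their summed levels lying at 1.70 to 3.04 FPKM and 0.670 to 0.820 FPKM in melatonin animals, against 1.53 to 4.02 FPKM and 1.03 to 1.80 FPKM in vehicle animals. Smooth muscle markers summed to 53.4 to 72.2 FPKM in melatonin animals and to 57.0 to 63.9 FPKM in vehicle animals, most of it Smtn.

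Aqp3 was the most abundant aquaporin and had the largest within-group spread of the 6 on the log2(FPKM + 1) scale. That scale narrows the spread of scarce genes. The highest of the 6 animals stood 7.66 times above the lowest for Aqp7, against 7.15 times for Aqp3. Aqp8 came next, then Aqp1 and Aqp11 at a similar level, and Aqp7 and Aqp4 were scarce. None of the 6 genes passed the limma test between melatonin and vehicle, and the values of the 2 groups overlapped for each of them. Aqp4, summed over its isoforms, was high in the animals in which Aqp1 was high. In exact permutation tests the adjusted p of this pair was 0.0417 for Pearson's r and 0.0833 for Spearman's rho. Aqp7 tended to be low in those animals. Its adjusted p was 0.0556 with either gene for Pearson's r, and 0.167 with Aqp1 and 0.125 with Aqp4 for Spearman's rho. These pairs were compared after their values were seen, and Aqp7 and Aqp4 rest on few reads. In this bulk tissue, fewer cells that express a gene and less of its RNA per cell cannot be told apart.

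**Figure D1:**
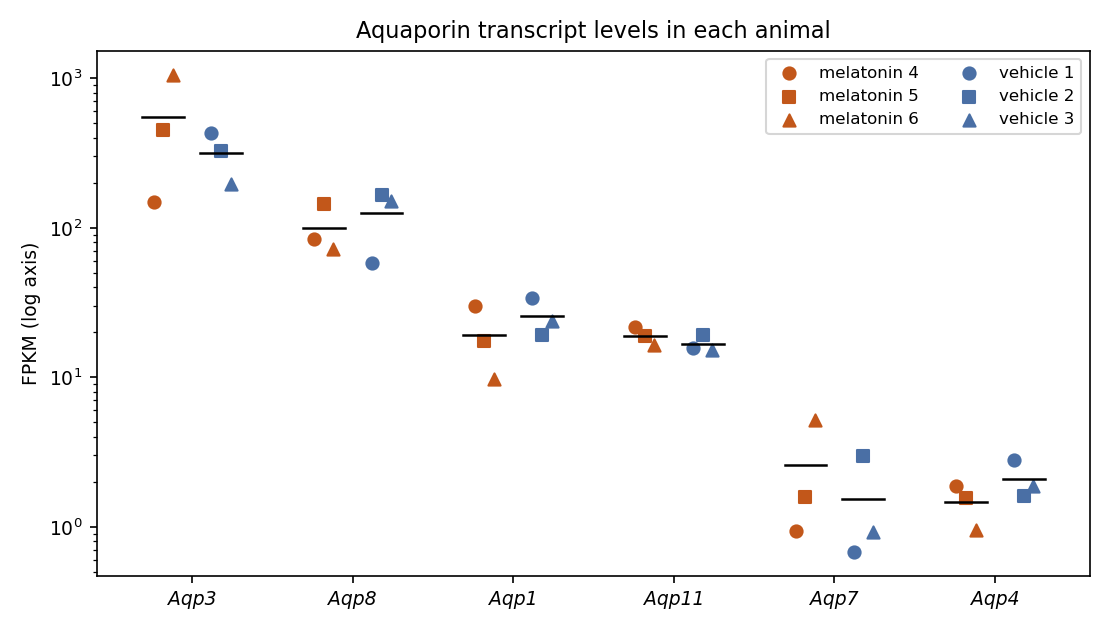
FPKM of each aquaporin in each animal on a log axis, with melatonin animals in orange to the left of vehicle animals in blue and a black bar at each group mean. Aqp3 ranges from 148 to 1059 FPKM, and for each of the 6 genes the groups overlap.

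The 6 genes were ranked by mean FPKM, and neighbours in that ranking were then compared in the same 6 animals. Averaged over all 6 animals, Aqp3 stood at 436 FPKM, Aqp8 at 113, Aqp1 at 22.3, Aqp11 at 17.9, Aqp7 at 2.05 and Aqp4 at 1.77 FPKM. Among all 13104 features the mean FPKM of Aqp3 was above that of 98.6% and that of Aqp8 above 93.8%, while Aqp7 and Aqp4 stood above 28.2% and 27.1%. Aqp3 was above Aqp8 in 6 of 6 animals (mean difference 1.75 ± 1.35 on the log2(FPKM + 1) scale, SD, n = 6). Aqp8 was above Aqp1 in 6 of 6 (2.27 ± 0.94) and Aqp11 above Aqp7 in 6 of 6 (2.79 ± 0.75). For these 3 pairs the exact two-sided sign-flip permutation test gave p = 0.0312, the smallest that 6 animals allow, and p = 0.0521 after Benjamini-Hochberg adjustment over the 5 neighbouring pairs, which misses 0.05. Aqp1 was above Aqp11 in 3 of 6 animals (exact permutation p = 0.500, adjusted p = 0.625) and Aqp7 above Aqp4 in 3 of 6 (exact permutation p = 1, adjusted p = 1), so neither pair of neighbours differed beyond its spread.

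Aqp3, the aquaglyceroporin, read 148, 452 and 1059 FPKM in melatonin animals 4, 5 and 6, against 431, 327 and 195 FPKM in vehicle animals 1, 2 and 3. The melatonin group thus held both the lowest and the highest value of the 6, and the vehicle animals lay between them. Its mean was 553 ± 464 FPKM after melatonin and 318 ± 118 FPKM after vehicle (SD, n = 3 each). The log2 change was 0.45 ± 0.62 (melatonin minus vehicle, on log2(FPKM + 1), with its standard error), with a 95% interval of -0.98 to 1.89 and a limma adjusted p of 0.974. That interval runs from 0.507 to 3.70 times the vehicle level. The direction rested on melatonin animal 6: without it the log2 change was -0.22 (limma adjusted p = 1.00). Leaving out melatonin animal 4 gave 1.19 (limma unadjusted p = 0.0236, adjusted p = 0.382). These values rest on an estimated 908 to 6624 reads per library, so counting error is small beside the spread between animals.

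The spread of Aqp3 was unusual for a gene at its level. Its within-group SD of log2(FPKM + 1) was 1.08, against a median of 0.21 over the 10137 features tested. Of these, 98.9% had a smaller one. Among the 928 tested features with a mean of at least 100 FPKM, 10 had a larger SD. Within the melatonin group the highest animal stood 7.15 times above the lowest, and within the vehicle group 2.21 times. Summed T and NK cell markers, 10 of 10 with a row, were 8.14, 18.6 and 32.3 FPKM in melatonin animals 4, 5 and 6, against 15.4, 13.1 and 4.56 FPKM in vehicle animals 1, 2 and 3. This sum was highest in the animal with the highest Aqp3 and lowest in the 2 animals with the lowest Aqp3. Its members differed: Cd3e, Cd3d, Cd8a, Gzmb, Gzma and Klrd1 were highest in melatonin animal 6. Nkg7 was highest in melatonin animal 5, Cd4 in vehicle animal 1, and Cd3g and Cd2 in vehicle animal 2. No member read above 7.52 FPKM in any library. The part of these cells in the Aqp3 values was not tested. Surface colonocyte markers, 10 of 12 with a row, summed to 9703, 10148 and 11576 FPKM in melatonin animals 4, 5 and 6, against 11402, 12048 and 10412 FPKM in vehicle animals 1, 2 and 3. Guca2a was the largest part, at 3769 to 5481 FPKM. Krt20, Car4, Ceacam1 and Cdhr5 were highest in melatonin animal 6, and Slc9a3 in melatonin animal 5. Guca2a and Guca2b were highest in vehicle animal 1, and Car1, Car2 and Slc26a3 in vehicle animal 2. The part of surface cells in the Aqp3 values was not tested. Crypt base markers, 10 of 12 with a row, summed to 230, 228 and 169 FPKM in melatonin animals 4, 5 and 6, against 236, 240 and 181 FPKM in vehicle animals 1, 2 and 3.

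**Figure D2:**
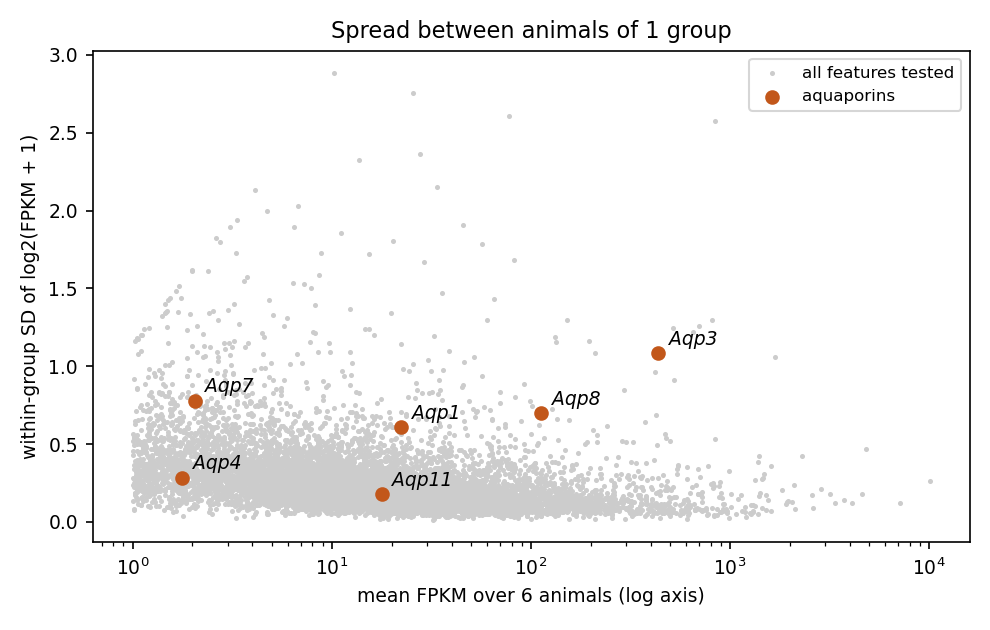
Within-group SD of log2(FPKM + 1) against the mean FPKM (log axis) for all 10137 features tested in grey and the 6 aquaporins in orange. Aqp3 has an SD of 1.08 at a mean of 436 FPKM, while Aqp11 lies among the bulk of features with 0.18.

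Aqp8, a water channel that also passes ammonia and hydrogen peroxide, read 83.6, 145 and 71.9 FPKM in melatonin animals 4, 5 and 6, against 57.8, 167 and 152 FPKM in vehicle animals 1, 2 and 3. The lowest and the highest value both belonged to vehicle animals, and melatonin animal 5 lay with vehicle animals 2 and 3. Its mean was 100.3 ± 39.4 FPKM after melatonin and 125 ± 59.0 FPKM after vehicle (SD, n = 3 each), a log2 change of -0.25 ± 0.41 (95% interval -1.18 to 0.69, limma adjusted p = 0.976). Without vehicle animal 1 the log2 change was -0.73 (limma unadjusted p = 0.0321, adjusted p = 0.909), and without vehicle animal 2 it was 0.029. The within-group SD was 0.70, larger than for 96.6% of features tested. Aqp8 rested on an estimated 312 to 836 reads per library.

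Together, Aqp3 and Aqp8 made up 81.0% to 97.2% of the summed FPKM of the 6 genes in each animal. That sum was 286, 637 and 1163 FPKM in melatonin animals 4, 5 and 6, against 542, 537 and 389 FPKM in vehicle animals 1, 2 and 3. The balance between the 2 genes differed widely. Aqp3 was 1.77, 3.11 and 14.7 times Aqp8 in melatonin animals 4, 5 and 6, against 7.46, 1.96 and 1.29 times in vehicle animals 1, 2 and 3. Being a ratio within a library, it does not depend on how libraries are scaled. The highest ratio was 11.4 times the lowest, each group had 1 animal with a high ratio (melatonin animal 6 and vehicle animal 1), and both of these had less Aqp8 than the other 4. The groups' ratios differed by 0.70 on the log2 scale (exact two-sided permutation p = 0.600, where 3 against 3 cannot go below 0.1).

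**Figure D3:**
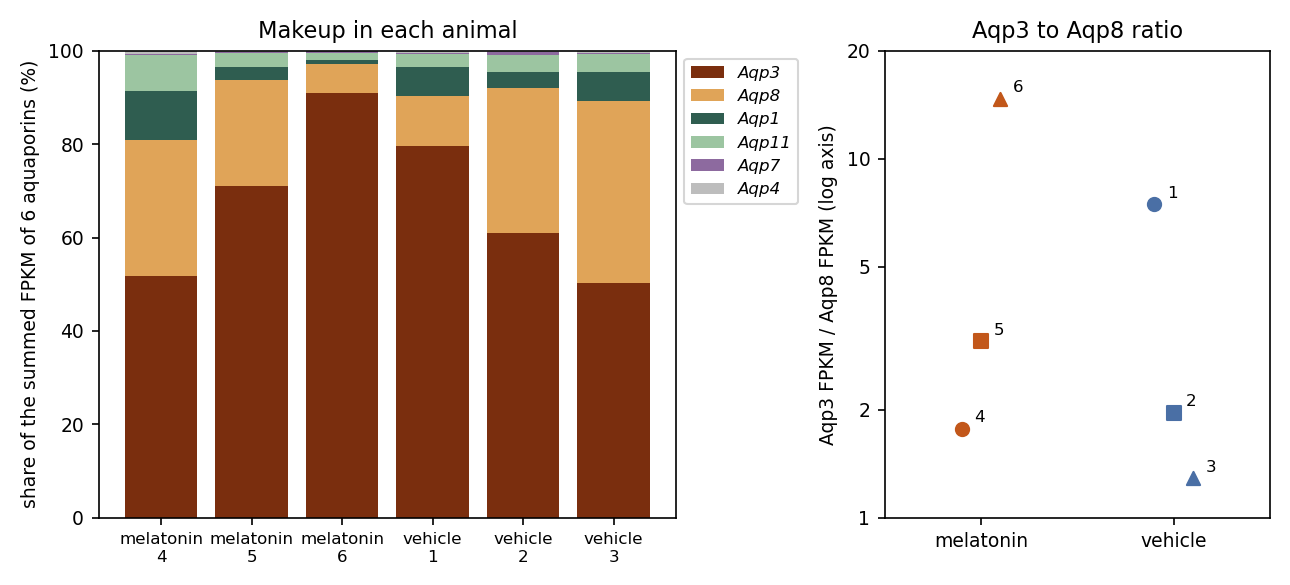
Left, the share of each aquaporin in the summed FPKM of the 6 genes for each animal, in percent, melatonin animals first; right, the ratio of Aqp3 to Aqp8 FPKM in each animal on a log axis, numbered by animal. Melatonin animal 6 and vehicle animal 1 have ratios of 14.7 and 7.46, and the other 4 animals lie between 1.29 and 3.11.

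Aqp1, the water channel best known from red blood cells, endothelium and kidney tubules, read 30.01, 17.5 and 9.71 FPKM in melatonin animals 4, 5 and 6, against 33.8, 19.2 and 23.8 FPKM in vehicle animals 1, 2 and 3. Melatonin animal 6 stood lowest, and melatonin animal 4 lay within the vehicle range. Its mean was 19.1 ± 10.2 FPKM after melatonin and 25.6 ± 7.47 FPKM after vehicle (SD, n = 3 each), a log2 change of -0.50 ± 0.37 (95% interval -1.34 to 0.34, limma adjusted p = 0.972). The change was -0.11 without melatonin animal 6 and -0.88 without melatonin animal 4 (limma unadjusted p = 0.0204, adjusted p = 0.378). The estimated reads numbered 88.7 to 308 per library.

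Markers of endothelium were set beside Aqp1. Of 14 listed, 9 had a row and 2 averaged at least 1 FPKM. The defining markers Cdh5, Kdr and Vwf read at most 0.340, 0.05 and 0.420 FPKM in any library, and Pecam1 lay between 1.92 and 3.93 FPKM. The summed list was 26.7, 19.0 and 19.7 FPKM in melatonin animals 4, 5 and 6, against 19.7, 25.7 and 25.2 FPKM in vehicle animals 1, 2 and 3, most of it Esam. Vehicle animal 1, with the highest Aqp1, and melatonin animal 6, with the lowest, had the same summed level to 3 digits. Esam alone was 17.2 and 17.0 FPKM in these animals, so the sum cannot tell how much endothelium a library held. Red blood cell markers, 9 of 10 with a row, summed to 133, 77.5 and 135 FPKM in the melatonin animals and to 154, 130 and 173 FPKM in the vehicle animals, with Hba-a1 between 44.5 and 99.9 FPKM. The part of endothelium and of red blood cells in the Aqp1 values was not tested.

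Aqp11, the channel of intracellular membranes, was the steadiest of the 6. It read 21.6, 18.9 and 16.6 FPKM in melatonin animals 4, 5 and 6, against 15.7, 19.3 and 15.2 FPKM in vehicle animals 1, 2 and 3. Each melatonin animal stood above at least 2 of the 3 vehicle animals, and vehicle animal 2 lay inside the melatonin range. Its mean was 19.0 ± 2.49 FPKM after melatonin and 16.7 ± 2.24 FPKM after vehicle (SD, n = 3 each), a log2 change of 0.17 ± 0.15 (95% interval -0.17 to 0.52, limma adjusted p = 0.972). The interval reaches from 0.886 to 1.44 times the vehicle value of FPKM + 1, the narrowest of the 6 genes. Its within-group SD of 0.18 was larger than for 39.8% of features tested, and the estimated reads numbered 67.7 to 94.3 per library.

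Aqp7, the glycerol channel known best from fat cells, read 0.930, 1.58 and 5.21 FPKM in melatonin animals 4, 5 and 6, against 0.680, 2.97 and 0.920 FPKM in vehicle animals 1, 2 and 3. These correspond to an estimated 4.0, 6.9 and 22.7 reads in the melatonin animals and 3.0, 12.0 and 4.0 reads in the vehicle animals, so a single read is worth about 0.234 FPKM and most of the values are at the limit of the depth. The log2 change was 0.42 ± 0.50 (95% interval -0.72 to 1.57, limma adjusted p = 0.974), and without melatonin animal 6 it was -0.068. With a pseudocount of 0.1 in place of 1 it was 0.64. Adipocyte markers, 5 of 7 with a row, summed to 15.6 to 19.9 FPKM in melatonin animals and 14.5 to 22.4 FPKM in vehicle animals, nearly all of it Cidec. Adipoq lay between 0 and 2.88 FPKM, and Plin1 and Lep were listed at 0 in 5 of the 6 libraries.

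Aqp4, the orthogonal-array water channel of astrocytes and of several epithelia, read 1.88, 1.56 and 0.950 FPKM in melatonin animals 4, 5 and 6, against 2.78, 1.60 and 1.88 FPKM in vehicle animals 1, 2 and 3. Vehicle animal 1 stood highest and melatonin animal 6 lowest, and melatonin animal 4 and vehicle animal 3 were equal to 2 decimals. Its mean was 1.46 ± 0.472 FPKM after melatonin and 2.09 ± 0.617 FPKM after vehicle (SD, n = 3 each), a log2 change of -0.33 ± 0.28 (95% interval -0.96 to 0.31, limma adjusted p = 0.972). It rested on an estimated 16.1 to 48.1 reads per library. The 4 Aqp4 rows have lengths of 4845 to 5018 bases and share most of their sequence as isoforms of 1 gene, so how reads were divided among them is uncertain. NM_001270558 was above 0 in all 6 libraries, with 1.87, 0.640 and 0.950 FPKM in melatonin animals 4, 5 and 6, against 1.12, 1.21 and 0.720 FPKM in vehicle animals 1, 2 and 3. NM_001142366 was listed between 0 and 1.66 FPKM, NM_012825 between 0 and 0.420 FPKM, and NM_001270559 above 0 in vehicle animal 3 alone, at 0.810 FPKM. With the isoforms kept apart, the log2 change of NM_001270558 was 0.063, opposite in sign to that of the sum, and with a pseudocount of 0.1 the change of the sum was -0.50. Enteric glia markers, 4 of 8 with a row, summed to 0.670, 0.820 and 0.690 FPKM in melatonin animals 4, 5 and 6, against 1.03, 1.80 and 1.32 FPKM in vehicle animals 1, 2 and 3. Sox10 and Gfap were each listed at 0 in 5 of 6 libraries, and the part of glia in the Aqp4 values was not tested.

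**Figure D4:**
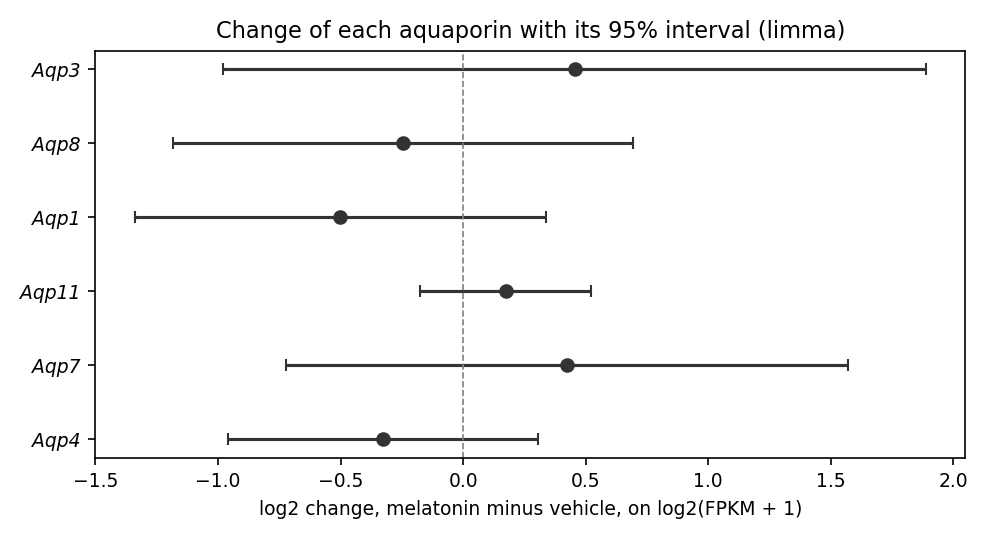
The log2 change of each aquaporin, melatonin minus vehicle, on log2(FPKM + 1), with bars for the 95% interval from limma and a dashed line at no change. Every interval crosses the line, the widest being that of Aqp3, from -0.98 to 1.89, and the narrowest that of Aqp11, from -0.17 to 0.52.

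Of the 6 genes, limma called 0 at an adjusted p under 0.05 (Benjamini-Hochberg over the 10137 features tested), and likewise 0% of all features were called. An unadjusted limma p under 0.05 was reached by 0 of the 6, against 3.75% of all features, 1.82% with a higher and 1.92% with a lower level after melatonin. The log2 change was positive for 3 genes and negative for 3, with a median of -0.04, against -0.02 over all features. Groups that do not overlap were found for 0 of the 6 genes, against 8.38% of all features, 4.04% with melatonin above and 4.33% with melatonin below vehicle. Exact two-sided permutation tests over the 20 regroupings of animals gave p between 0.300 and 0.800 for the 6 genes. In the authors' deposited table the log2 ratios of mean FPKM were 0.80 for Aqp3, -0.32 for Aqp8, -0.42 for Aqp1, 0.18 for Aqp11 and 0.76 for Aqp7, taken without a pseudocount of 1. Aqp4 has no single ratio there. Its isoforms, with group means of at most 1.15 FPKM, had ratios of -1.96, 0.18, -4.79 and 0.10. The -4.79 belongs to the isoform listed above 0 in vehicle animal 3 alone. Its melatonin values were all 0 and its deposited melatonin mean was 0.01, so that ratio rests on this floor and 1 library. The 95% intervals reach 3.70 times the vehicle value of FPKM + 1 for Aqp3 and 2.97 times for Aqp7. For a gene as low as Aqp7 the added 1 understates how far the level itself could differ. A missed threshold thus does not show that these genes were the same in both groups.

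The 6 genes were also compared with each other across animals, over 15 pairs on the log2 scale. Aqp1 and Aqp4 were high and low in the same animals (Pearson r = 0.947, exact permutation p = 0.00278, adjusted p = 0.0417; Spearman rho = 0.986, exact permutation p = 0.00556, adjusted p = 0.0833; n = 6 animals). Without melatonin animal 6 and vehicle animal 1, the 2 animals farthest from the median of Aqp1, r was 0.916, and with each group's mean removed it was 0.942. Aqp7 ran against both: its r was -0.925 with Aqp1 (exact permutation p = 0.00833, adjusted p = 0.0556) and -0.888 with Aqp4 (exact permutation p = 0.0111, adjusted p = 0.0556), with Spearman's rho at -0.886 (exact permutation p = 0.0333, adjusted p = 0.167) and -0.928 (exact permutation p = 0.0167, adjusted p = 0.125). Without the same 2 animals these r were -0.695 and -0.802. Aqp7 and Aqp4 rest on few reads, and the pairs used the sum of the 4 Aqp4 isoforms, not single isoforms. Aqp3 and Aqp8 had an r of -0.327 (exact permutation p = 0.515, adjusted p = 0.914; Spearman rho = -0.371, exact permutation p = 0.497, adjusted p = 0.765), and without melatonin animals 4 and 6 it was -0.457. All values of 1 animal come from 1 library, and no coefficient was computed over the 3 animals of either group alone.

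Genes outside the family were ranked by how closely their values followed each aquaporin, as the root mean square difference between log2(FPKM + 1) values centred on each gene's own mean over the 6 animals, among the named genes with a mean of at least 5 FPKM. For Aqp3, whose own root mean square deviation was 0.91, the closest of 7658 genes were A3galt2 (difference 0.18) and Dmbt1 (0.20). Dmbt1, a mucosal scavenger glycoprotein, read 75.0, 197 and 591 FPKM in melatonin animals 4, 5 and 6, against 170, 125 and 97.1 FPKM in vehicle animals 1, 2 and 3. It put the 6 animals in the same order as Aqp3. A3galt2, a galactosyltransferase gene, read 4.37, 10.4 and 26.7 FPKM in the melatonin animals, against 13.1, 8.66 and 4.46 FPKM in the vehicle animals, an order that differed from that of Aqp3 in melatonin animal 5 and vehicle animal 1.

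For Aqp8, with a deviation of 0.58, the closest were Spink1 (difference 0.23), a trypsin inhibitor, and Timd2 (0.26). Spink1 read 289, 581 and 386 FPKM in melatonin animals 4, 5 and 6, against 204, 579 and 522 FPKM in vehicle animals 1, 2 and 3, lowest in vehicle animal 1 as Aqp8 was. Timd2 lay between 7.15 and 26.6 FPKM. For Aqp1, with a deviation of 0.56, they were Gdpd2 (difference 0.16), a glycerophosphodiester phosphodiesterase, and Ntn4 (0.19), a netrin of basement membranes. Gdpd2 read 17.1, 8.13 and 4.64 FPKM in melatonin animals 4, 5 and 6, against 16.7, 12.7 and 11.8 FPKM in vehicle animals 1, 2 and 3, and Ntn4 lay between 2.44 and 7.94 FPKM. Gab2 and Tmem9 were closest to Aqp4, at differences of 0.09 each against a deviation of 0.28. Malrd1 and Foxn1 were closest to Aqp7, at 0.26 and 0.29 against 0.67. Stambpl1 and Naxd were closest to Aqp11, at 0.04 and 0.05 against 0.17. These genes were picked for their likeness, so it carries no test.

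**Figure D5:**
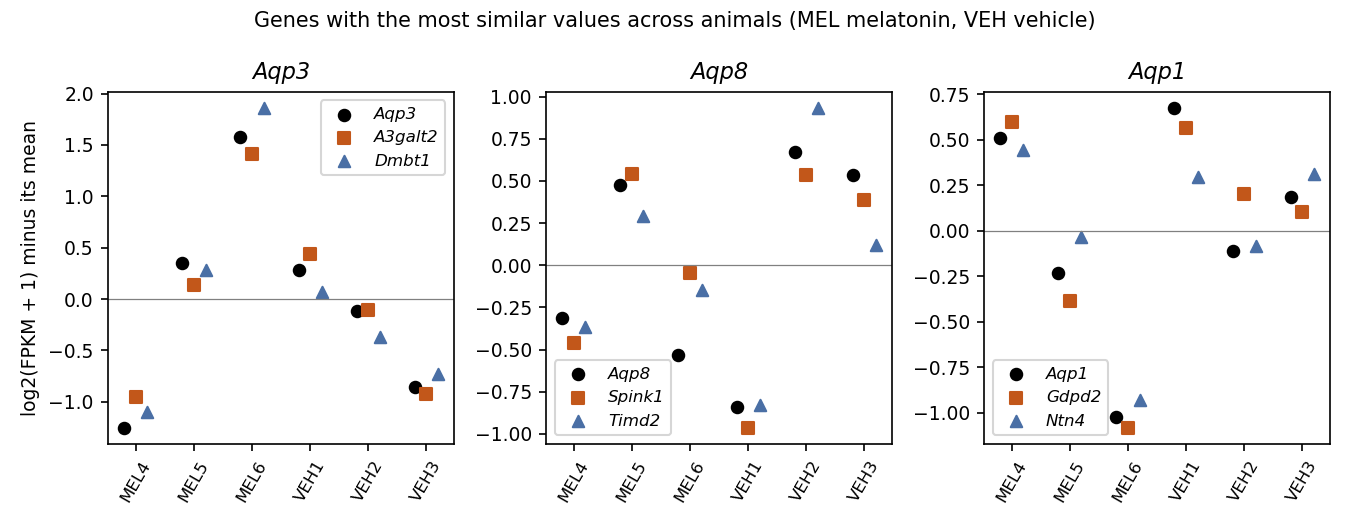
For Aqp3, Aqp8 and Aqp1, the log2(FPKM + 1) value in each animal minus the gene's mean over the 6 animals (black circles), with the closest gene (orange squares) and the next (blue triangles), melatonin animals to the left of vehicle animals. Aqp3, A3galt2 and Dmbt1 are all highest in melatonin animal 6 and all lowest in melatonin animal 4.

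Genes that work around the aquaporins were described from 5 lists, and in each of them limma called 0 members higher and 0 lower. Ion transport that drives water movement had 30 members tested of 32 listed, 8 with a positive and 22 with a negative log2 change and a median of -0.07, which was -0.12 without melatonin animal 4 and -0.013 without melatonin animal 6. Its members with the smallest p were the sodium pump subunit Atp1b1 (1402 ± 101 FPKM after melatonin and 1614 ± 45.4 after vehicle), the sodium channel subunit Scnn1a (252 ± 11.9 after melatonin and 288 ± 18.6 after vehicle) and the chloride exchanger Slc26a3 (1002 ± 57.4 after melatonin and 1181 ± 152 after vehicle), each at a limma adjusted p of 0.972. Picked out after their values were seen, Atp1b1 and Scnn1a lay below all vehicle animals in every melatonin animal, and Slc5a1, the sodium-glucose cotransporter, above them. Of the 30 members tested, 1 had groups apart with melatonin above and 3 with melatonin below. Over all features the shares were 4.04% above and 4.33% below, 8.38% together. Outside this list, Lrrc8b, Gpam, Prkar1a, Gpx4 and Prdx6 also had groups that did not overlap. Osmotic response genes had 15 tested of 18, 5 positive and 10 negative, with a median of -0.05, and between -0.096 and -0.0040 on leaving out each animal. Of these Lrrc8b, a subunit of the volume-regulated anion channel, stood at 16.9 ± 1.54 FPKM after melatonin and 22.0 ± 1.88 FPKM after vehicle (log2 change -0.36 ± 0.13, limma unadjusted p = 0.0243, adjusted p = 0.972). Nfat5, the tonicity-responsive transcription factor, stood at 19.1 ± 3.15 FPKM after melatonin and 22.8 ± 3.67 FPKM after vehicle, and Sgk1, a kinase that favours sodium uptake, at 417 ± 193 FPKM after melatonin and 523 ± 58.8 FPKM after vehicle (SD, n = 3 each throughout).

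Genes that make or remove hydrogen peroxide had 21 members tested of 24 listed, 10 positive and 11 negative, with a median log2 change of -0.0015, whose sign varied with the animal left out. Gpx4, the peroxidase that reduces lipid peroxides, read 115, 124 and 117 FPKM in melatonin animals 4, 5 and 6, against 146, 146 and 147 FPKM in vehicle animals 1, 2 and 3. Its log2 change was -0.30 ± 0.08, with a limma unadjusted p of 0.00678 and an adjusted p of 0.972. Gpx4 and Prdx6 were the 2 of these 21 members whose groups did not overlap, where 8.38% of all features had such groups. Prdx6, a peroxiredoxin, stood at 323 ± 7.60 FPKM after melatonin and 405 ± 83.3 FPKM after vehicle, and Gpx1, a glutathione peroxidase, at 62.6 ± 6.89 FPKM after melatonin and 73.8 ± 7.48 FPKM after vehicle. Glycerol handling genes had 16 tested of 18, 9 positive and 7 negative, with a median of 0.05, which was -0.057 without vehicle animal 1 and 0.11 without vehicle animal 3. Gpam, which starts glycerolipid synthesis, stood at 16.5 ± 0.849 FPKM after melatonin and 13.9 ± 1.49 FPKM after vehicle, the kinase gene Agk at 8.41 ± 1.73 FPKM after melatonin and 6.43 ± 0.896 FPKM after vehicle, and the phosphatase gene Pgp at 23.9 ± 2.72 FPKM after melatonin and 27.6 ± 2.01 FPKM after vehicle. Receptors and cAMP signalling genes that act on aquaporins elsewhere had 14 tested of 19, 5 positive and 9 negative, with a median of -0.10, which was 0.026 without melatonin animal 6, and Akap13, Nr3c2 and Prkar1a had the smallest p, at limma adjusted p-values of 0.972, 0.972 and 0.974.

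The other family members with a row were Mip and Aqp12a. Mip, known as the main channel of lens fibre cells, read 51.1, 52.0 and 52.3 FPKM in melatonin animals 4, 5 and 6, against 49.5, 60.5 and 55.7 FPKM in vehicle animals 1, 2 and 3. That is above Aqp1 in every animal, on an estimated 417 to 474 reads per library, and its within-group SD of 0.10 was larger than for 12.7% of features tested. Aqp12a, known from the exocrine pancreas, read 4.34, 3.42 and 5.54 FPKM in the melatonin animals, against 3.44, 4.33 and 7.48 FPKM in the vehicle animals. The log2 changes were -0.09 ± 0.11 for Mip (limma adjusted p = 0.974; -0.16 without vehicle animal 1 and -0.020 without vehicle animal 2) and -0.13 ± 0.28 for Aqp12a (limma adjusted p = 0.979). In the RefSeq annotation no other gene overlaps either of them. The labels describe no strand marking in the library protocol, and the table does not show where within a transcript its reads fall.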

How the data were processed

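Polyadenylated RNA of 6 colonic epithelium samples was sequenced, per the labels' protocols. The authors deposited FPKM values per RefSeq transcript and animal, with mean FPKM per group, per the file headers. The authors' deposited table also holds the log2 ratio of those means, a score headed as a probability, which was not used, and each transcript's length. RSEM, Bowtie2, BWA 0.7.10-r789 and the build rn6 are listed, without their roles, in the submitters' processing notes, and the annotation release is not given in the sources used here. How reads shared by isoforms or near-identical genes were treated is not given in the sources used here, and it can move values between them.

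Accessions were matched to symbols of RefSeq GRCr8 (12883 of 13647 transcripts), and rows of 1 gene were summed. Features with a mean of at least 1 FPKM entered a two-sided limma test (version 3.58.1, R 4.3.3, with a mean trend and Benjamini-Hochberg adjustment) on log2(FPKM + 1), which understates changes of low genes. The procedure was run on simulated independent normal values with fitted spreads. That setting holds no single outlying animals, and its outcome is not reported here. Depth was estimated from steps between low values, with 34 bases taken off each length. By that estimate the share of low values falling within 0.1 of a whole read was 87.3% to 93.8%, and estimated reads cover counting error only. Levels, pairs and single genes were compared with exact permutation tests in Python 3.11.15. The labels do not say whether animals were handled in batches, and p-values measure the spread between these animals. The members and lists were chosen with earlier results of these data known, and the pairs of aquaporins were compared after their values were seen. Named genes were every aquaporin with a row, the 3 members of each pathway list with the smallest p, the 2 genes closest to each aquaporin and the 2 markers of each list with the highest level, not all of which are printed. Other markers, and list members whose groups did not overlap, were named after their values were seen, and 1 such member is not reported here. Alternatives were other scalings, filters and pseudocounts, unsummed transcripts, no mean trend and leaving out each animal.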

Additional observations from a re-analysis of the deposited data

How the results depend on the processing

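No paired analysis was possible because the groups share no replicate numbers. The 6 aquaporins stayed short of the threshold in each of the 13 alternatives run. Leaving out each animal gave log2 changes from -0.22 to 1.19 for Aqp3, -0.73 to 0.029 for Aqp8, -0.88 to -0.11 for Aqp1, 0.08 to 0.28 for Aqp11, -0.068 to 0.81 for Aqp7, -0.45 to -0.17 for Aqp4, -0.33 to 0.14 for Aqp12a and -0.16 to -0.020 for Mip. The list medians ranged from -0.12 to -0.013 for ion transport, -0.096 to -0.0040 for the osmotic response, -0.034 to 0.059 for hydrogen peroxide, -0.057 to 0.11 for glycerol handling and -0.13 to 0.026 for receptors and cAMP. A pseudocount of 0.1 gave 0.64 for Aqp7 and -0.50 for Aqp4. With transcripts unsummed, the Aqp4 change was 0.063, since a single isoform was then tested. The Aqp7 minus Aqp4 difference, -0.01 as reported, was 2.53e-05 with median-of-ratios scaling, 0.40 with transcripts unsummed and -0.34 to 0.23 without each animal. Aqp3, Aqp8, Aqp1 and Aqp11 kept their order of mean differences, from 1.33 to 2.03 for Aqp3 minus Aqp8, 2.11 to 2.57 for Aqp8 minus Aqp1, 0.05 to 0.40 for Aqp1 minus Aqp11 and 2.64 to 3.05 for Aqp11 minus Aqp7, without each animal. Over all features, 1 was lower without a filter and 1 without the mean trend (Mir3074 in both), and 0 to 4 were higher without each animal, 4 without melatonin animal 4 and 3 without vehicle animal 1, none of them an aquaporin. Depth limits Aqp7, at 3.0 to 22.7 estimated reads per library, and Aqp4, at 16.1 to 48.1.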
